A study of Mus musculus with 9 samples.

Results

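In the mouse genome, 10 windows on autosomes carried dense runs of Hoxa13 ChIP-seq peaks, and the peaks whose start lay in them are described here. The windows lie in build mm9 on chromosome 2 from 177000001 to 178000000, chromosome 4 from 60000001 to 61000000 and from 145000001 to 147000000, chromosome 5 from 14000001 to 16000000, chromosome 8 from 19000001 to 20000000, chromosome 9 from 2900001 to 3100000, chromosome 13 from 65000001 to 67000000, and chromosome 14 from 4000001 to 5000000, 7000001 to 8000000 and 42000001 to 44000000. Those of chromosomes 4 and 14 are called by their order along the chromosome. They add up to 13.2 Mb and held 3730 of the 243649 peaks in the 5 lists. They are described as multi-copy, but the copy number of their sequence was not measured here. The windows were chosen by their high Hoxa13 peak counts, so the Hoxa13 counts below are a description of that choice. No p-value is given, because each Hoxa13 stage was 1 library and neighbouring peaks in repeated sequence are not independent of each other.

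Chromatin of wild-type ICR embryos, from their developing limbs, was precipitated with home-made antibodies. Hoxa13 was mapped in the autopod, the future hand and foot, at E11.0 from 11 pairs per precipitation, in whole limb buds of a litter at E11.5, and by an earlier published procedure in E12.5 limb buds, each stage giving 1 library. Hoxa11 was mapped in E11.5 limb buds in replicates 1 and 2, and the labels do not say whether these came from separate litters. Of the 9 libraries, 4 were input DNA and were not analysed here. One input served both the E11.5 Hoxa13 library and Hoxa11 replicate 1, going by its title, while Hoxa11 replicate 2 had its own. The sources used here give no read depth, stage changes together with tissue or protocol, and the intervals below are exact Clopper-Pearson 95% intervals that cover counting error over peaks only. The Hoxa13 lists have no replicate check.

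Hoxa13 and Hoxa11 are homeodomain transcription factors that bind short AT-rich sites. Hoxa13 is needed for the hand and foot, and Hoxa11 for the forearm and lower leg. Where a genome holds many near-identical copies of a sequence, a short read from any copy can be placed on any other, and copies missing from the assembly send their reads to those that are present. A peak caller such as MACS2 compares the pile-up of reads at a site with a local background, so sequence of many copies can raise both. Several mouse autosomes carry large gene families, whose copies can be more or less alike. Among them are the major urinary proteins (Mup) on chromosome 4, the Speer genes on chromosome 5 and the defensins on chromosome 8. Zinc finger genes (Zfp) lie on chromosomes 2, 4 and 13.

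How alike such copies are can be read from RefSeq promoters of build GRCm38.p6, which cover the bases around a gene's start. These genes were not placed on the peaks, whose coordinates are of another build. The pair shown is the most similar non-identical pair of Speer promoters, on the minus strand of chromosome 5, and is printed 5′ to 3′ with the bases that differ in capitals.
Speer4e: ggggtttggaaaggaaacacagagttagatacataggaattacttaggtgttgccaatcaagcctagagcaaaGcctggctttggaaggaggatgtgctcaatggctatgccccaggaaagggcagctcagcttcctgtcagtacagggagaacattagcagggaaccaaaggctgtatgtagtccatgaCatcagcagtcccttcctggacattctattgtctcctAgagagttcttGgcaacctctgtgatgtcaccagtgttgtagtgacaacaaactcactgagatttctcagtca
Speer4c: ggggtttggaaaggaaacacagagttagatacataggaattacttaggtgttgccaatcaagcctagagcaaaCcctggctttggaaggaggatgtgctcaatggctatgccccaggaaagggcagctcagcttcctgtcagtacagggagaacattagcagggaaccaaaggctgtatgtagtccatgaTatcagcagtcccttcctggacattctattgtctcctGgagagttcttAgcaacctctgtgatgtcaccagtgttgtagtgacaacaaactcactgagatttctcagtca
The Speer4e and Speer4c promoters matched at 296 of 300 bases, or 98.7%, so a read that spans none of the 4 differing bases matches both.

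RefSeq held 11 Speer genes on chromosome 5, of which 6 stood next to another Speer gene. Among the 9 protein-coding Speer genes with a promoter, 7 had another Speer promoter at least 90% identical, and the median identity over pairs was 84.5%. Of 45 Mup genes on chromosome 4, 43 had a Mup gene as their next neighbour, and each of the 16 Mup promoters had a partner at least 90% identical. Among 64 defensin genes (Defa and Defb) on chromosome 8, 55 stood next to another one, and 15 of 30 promoters had such a partner. The median pair identity was 82.6% for Mup and 50.3% for the defensins. Zinc finger promoters had medians near that of the defensins, at 49.4% on chromosome 13, 48.0% on chromosome 4 and 47.9% on chromosome 2. There the numbers with a partner at least 90% identical were 2 of 31, 6 of 20 and 10 of 26 Zfp promoters. In the same order of chromosomes, 20 of 39, 4 of 28 and 4 of 30 Zfp genes stood next to another one. Identity was counted over the columns of a gapped pairwise alignment, with end gaps left out. No unrelated promoters were compared, so the Zfp and defensin medians are not read as likeness between copies. All families named here are background on the chromosomes concerned, and which of their members lie in the windows was not examined.

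The windows stood out most in the E11.0 list, less in that of E12.5 and least in that of E11.5. They took 1586 of 50890 Hoxa13 peaks at E11.0, which is 3.12% (2.97 to 3.27). At E11.5 they took 1163 of 143460, or 0.811% (0.765 to 0.858), and at E12.5 937 of 44699, or 2.10% (1.97 to 2.23). Of the base pairs covered by peaks, the windows held 4.36% (E11.0), 0.880% (E11.5) and 2.34% (E12.5). For Hoxa11, which had no part in choosing the windows, the share was 0.440% in replicate 1 (13 of 2953 peaks, 0.235 to 0.752) and 1.88% in replicate 2 (31 of 1647, 1.28 to 2.66). The libraries whose titles share an input, Hoxa13 at E11.5 and Hoxa11 replicate 1, had the lowest shares among the 5 lists. Whether the input had a part in that was not tested.

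Counts were also set against a typical megabase of chromosomes 1 to 19, where the median window of 1 Mb with any peak held 17 (E11.0), 54 (E11.5) and 16 (E12.5) Hoxa13 peaks. At E11.0 the 9 windows other than the one on chromosome 9 lay between 4 and 13.2 times that median (median of the 9, 6.12), and 9 of 9 exceeded the 99th percentile of all such windows, 54.9 peaks. At E11.5 they lay between 1.15 and 2.26 times (median 1.30), and 0 of 9 exceeded the 99th percentile of 129 peaks. At E12.5 the span was 0.688 to 7.34 times (median 3.06), and 6 of 9 exceeded the 99th percentile of 47.9 peaks. The windows thus stood out least in the longest list, that of E11.5. As they were picked for high Hoxa13 counts, a high rank among such windows was favoured by the choice.

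The windows did not share one stage profile in raw counts. In the order E11.0, E11.5, E12.5, the chromosome 13 window held 450, 244 and 98 Hoxa13 peaks and the chromosome 2 window 89, 83 and 11. Both counts declined towards E12.5, and the chromosome 2 window fell below the typical megabase there. The second window of chromosome 4 kept 273, 198 and 235 peaks, and the chromosome 8 window 108, 70 and 97, so both counts had a low at E11.5. The chromosome 5 window had its highest count, 242, at E11.5, with 136 at E11.0 and 156 at E12.5. The lists differ in length, so these counts do not compare density between stages. As multiples of the typical megabase, the chromosome 5 window stood at 4, 2.24 and 4.875 times. That of chromosome 13 stood at 13.2, 2.26 and 3.06 times. On that measure every window but that of chromosome 2 was lowest at E11.5.

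On chromosome 14 the counts at E11.0, E11.5 and E12.5 were 98, 67 and 36 in the first window, 103, 66 and 47 in the second and 208, 124 and 144 in the third. The first window of chromosome 4 held 114, 69 and 48. The window on chromosome 9 stood apart from all of these, with 7 peaks in the first list, 0 in that of E11.5 and 65 in the last.

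**Figure D1:**
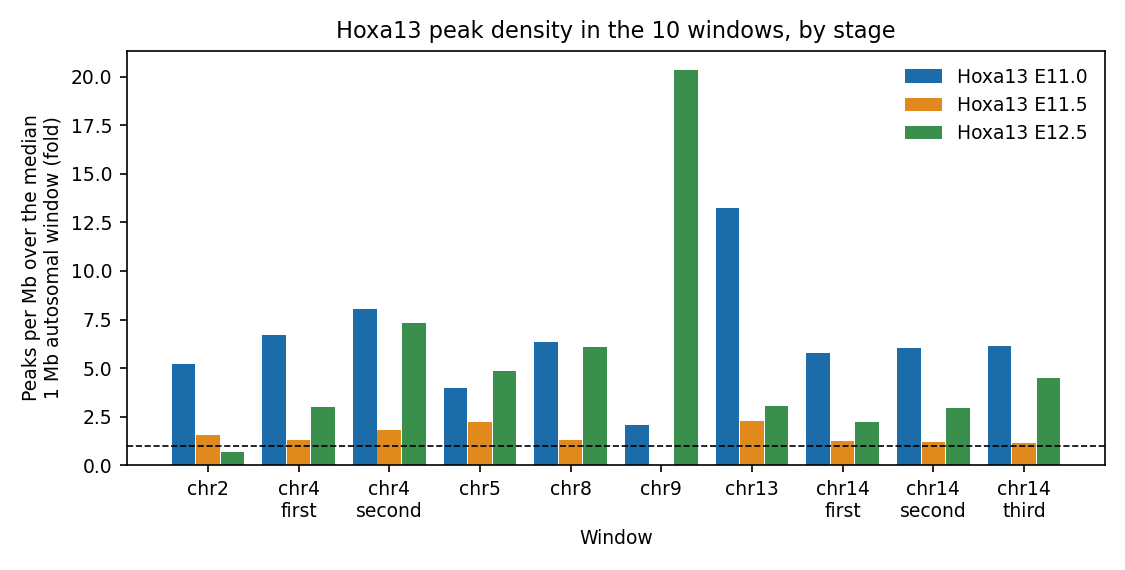
Hoxa13 peaks per Mb in each of the 10 windows as a multiple of the median 1 Mb autosomal window of the same list (y axis, fold), in 1 library per stage (bars; dashed line, 1-fold). At E11.0 the windows other than chromosome 9 reach 4 to 13.2-fold, at E11.5 1.15 to 2.26-fold, and at E12.5 the chromosome 9 window reaches 20.3-fold while the chromosome 2 window is at 0.688-fold. Windows of one chromosome are numbered in order along it.

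Around the windows the Hoxa13 density fell off, which the choice of windows with high counts largely fixed in advance. The tallies below describe that choice. The 9 windows held 1579 peaks at E11.0, against 418 in the flanks of equal length on their left and 415 on their right. At E11.5 they held 1163, against 778 and 631, and at E12.5 872, against 239 and 264. The window had more peaks than its left flank in 9 of 9 cases at E11.0 and E12.5 and in 8 of 9 at E11.5, and more than its right flank in 9 of 9 at each stage. The exception was the chromosome 5 window at E11.5, with 242 peaks inside and 297 in the left flank. The 18 borders of these 9 windows were each taken in the 3 Hoxa13 lists. The nearest peak inside lay at a median of 17.6 kb from the border and the nearest outside at 16.7 kb. A typical megabase held 16 to 54 Hoxa13 peaks, so these distances cannot tell whether the rounded borders mark the ends of dense stretches.

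Window peaks were wider than other peaks in each Hoxa13 list, a description only, since these widths come from the calls that chose the windows. The median width was 303 bp in the windows at E11.0 (292 to 312), against 243 bp in the rest (242 to 244). At E11.5 it was 306 bp in the windows (299 to 313), against 286 bp in the rest. At E12.5 it was 171 bp (166 to 176), against 154 bp. Flank peaks lay between these or near the rest, at 267.5, 295 and 156 bp. At E11.5 the interval of the flanks, 286 to 302 bp, overlapped that of the windows. At E11.0, 37 of the 1586 window peaks were over 1000 bp wide (2.33%), against 58 of 49304 in the rest (0.118%). The counts were 10 of 1163 (0.860%), against 336 of 142297 (0.236%), at E11.5 and 0 of 937, against 40 of 43762 (0.0914%), at E12.5, so the excess was not seen at E12.5. In the Hox cluster windows, 4 windows of 1 Mb around the Hox gene clusters A to D, the median at E11.5 was 322 bp and 1.81% of the peaks were over 1000 bp, both above the values of the 10 windows at that stage. In Hoxa11 the medians were 331 bp (248 to 480) in the windows against 283 bp in the rest for replicate 1, and 273 bp (234 to 728) against 283.5 bp for replicate 2. Both intervals take in the value of the rest.

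The widest Hoxa13 peak of each window was an E11.0 peak in 10 of 10 windows. The widest of them lay on chromosome 9 from 3019687 to 3031052, 11366 bp long. On chromosome 5 it lay from 14958927 to 14961293 (2367 bp), and on chromosome 8 from 19995322 to 19997678 (2357 bp), close to the end of that window. On chromosome 13 it lay from 66532034 to 66533763 (1730 bp), at a site that all 5 lists shared, and in the second window of chromosome 4 from 146554444 to 146555869 (1426 bp). In the other windows the widest peak measured between 614 and 875 bp, the shortest on chromosome 4 from 60495070 to 60495683. The others were on chromosome 2 from 177379064 to 177379920 and on chromosome 14 from 4904250 to 4905124, from 7470592 to 7471448 and from 43224536 to 43225204.

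In the chromosome 9 window, peaks lay within a stretch of about 38 kb, which in 2 of the lists they covered almost end to end. At E11.0 its 7 peaks, 1038 to 11366 bp wide, covered 96.9% of the 38.4 kb from 2999976 to 3038358. At E12.5 it held 65 peaks with a median width of 228 bp, whose starts followed each other at a median distance of 500 bp and which covered 42.7% of 36.6 kb. Hoxa11 replicate 2 had 9 peaks there, 1028 to 7741 bp wide, which covered 95.9% of 38.4 kb. The first chromosome 9 peak of Hoxa13 at E11.5 began at 3139256, and that of Hoxa11 replicate 1 at 4979856. The stretch was therefore listed in 3 lists and empty in the 2 whose titles share an input, including 1 of 2 libraries made with the same Hoxa11 antibody.

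Between stages, the windows differed from the rest of the genome in which lists met which. Of E11.0 peaks, 743 of 1586 in the windows met an E11.5 peak by at least 1 bp, or 46.8% (44.4 to 49.3), against 58.5% in the rest and 58.1% of the whole list. In the other direction, 751 of 1163 window peaks at E11.5 met an E11.0 peak, or 64.6%, against 20.2% in the rest, 31.8% in the flanks and 20.5% of the whole list. Of E12.5 window peaks, 625 of 937 met E11.0, or 66.7%, against 34.9% in the rest and 35.6% of the whole list, whereas 453 of 937 met E11.5, or 48.3%, against 71.2% in the rest and 70.7% of the whole list. At E12.5 the more frequent partner was thus E11.0 in the windows and E11.5 in the rest. This order held at 1 bp only: with overlap of 50% of both peaks, E12.5 window peaks met E11.0 in 23.5% and E11.5 in 25.3%, against 21.9% and 29.7% in the rest.

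E11.5 window peaks met E12.5 in 438 of 1163 cases, or 37.7%, against 21.5% in the rest and 21.7% of the whole list. E11.0 window peaks met E12.5 in 524 of 1586 cases, or 33.0% (30.7 to 35.4), against 30.7% in the rest and 30.7% of the whole list. This last difference was small and turned to the opposite sign when overlap had to reach 50% of both peaks, with 13.9% in the windows and 19.4% in the rest. It also rested on single windows, as it was 2.39 points with all of them, −1.79 without the second window of chromosome 4 and 9.75 without that of chromosome 13. A share of peaks that meet a list moves with how dense that list is at the place. The windows were themselves picked for dense Hoxa13 peaks, so these shares are no separate evidence of shared sites.

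Merged over stages, the windows held 2217 Hoxa13 sites and 173306 lay outside. Sites listed at E11.0 alone made up 682 of the 2217, or 30.8% (28.8 to 32.7), against 10.7% outside and 18.4% in the flanks. Sites listed at E11.5 alone made up 340, or 15.3% (13.9 to 16.9), against 55.6% outside and 42.7% in the flanks. Sites at E11.0 and E12.5 but not E11.5 were 155, or 6.99%, against 1.05% outside and 2.13% in the flanks. Sites at all 3 stages were 363, or 16.4%, against 7.75% outside and 10.5% in the flanks. The flanks stood between windows and outside in each of these classes. These sites come from the same Hoxa13 peaks whose density chose the windows, and the lists differ in length. The shares are therefore a description, and their intervals treat neighbouring sites as independent.

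**Figure D2:**
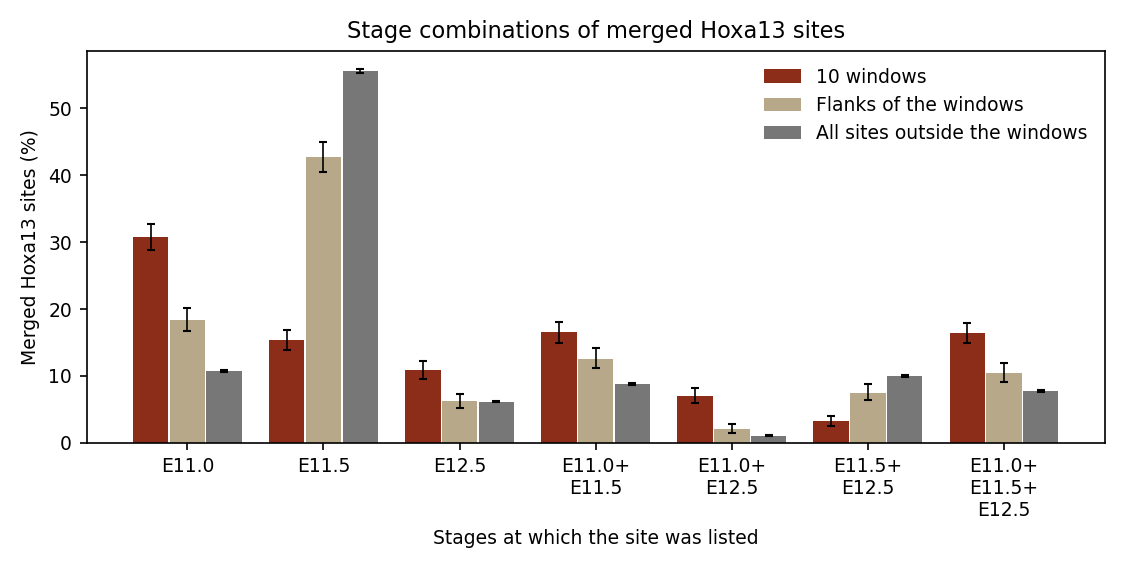
Share of merged Hoxa13 sites (y axis, percent) by the stages at which a site was listed (x axis), for the 10 windows (2217 sites), their flanks (1921) and all sites outside the windows (173306), with exact 95% intervals over sites as error bars. In the windows sites of E11.0 alone make up 30.8% and of E11.5 alone 15.3%, against 10.7% and 55.6% outside. The windows were picked for dense Hoxa13 peaks, and the lists differ in length.

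The windows again differed among themselves. On chromosome 13, 259 of 524 sites were of E11.0 alone, or 49.4%, and 54 were found at all stages. On chromosome 5, 126 of 321 sites were of E11.5 alone, or 39.3%, the share nearest to that outside. The share of sites found at all stages was highest on chromosome 8, with 42 of 144 (29.2%), and in the second window of chromosome 4, with 105 of 384 (27.3%). On chromosome 2 it was 9 of 133 (6.77%), and on chromosome 9 it was 0 of 7, since 7 of 7 merged sites were of E11.0 and E12.5.

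A tandem array can place peaks at recurring distances, so pairs of peaks under 200 kb apart were counted in classes of 1 kb. In 22 of 26 combinations of list and window the most frequent class held at least 2 times the pairs of the median class. Chromosome 9 gave no such ratio, since its stretch is shorter than the range of distances and its median class held 0 pairs. The flanks showed similar ratios: the median ratio over windows was 2.20 (E11.0), 2.71 (E11.5) and 3.16 (E12.5), against 3.25, 3.42 and 3 in flanks with enough peaks. Recurring distances did not set these windows apart by this measure. Most flanks had fewer peaks than the windows, and the ratio was not adjusted for the number of pairs.

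The most frequent class was under 10 kb in most windows at E11.0 and more varied later. At E11.0 it was 5 to 6 kb on chromosome 2, 1 to 2 kb and 4 to 5 kb in the windows of chromosome 4, 2 to 3 kb on chromosomes 5 and 8, 1 to 2 kb on chromosome 13, and 8 to 9 kb, 21 to 22 kb and 3 to 4 kb in the windows of chromosome 14. At E11.5 it was 8 to 9, 80 to 81, 4 to 5, 20 to 21, 24 to 25, 2 to 3, 22 to 23, 121 to 122 and 1 to 2 kb in the same order of windows. At E12.5, where the chromosome 2 window had too few peaks, it was 1 to 2, 10 to 11, 1 to 2, 0 to 1, 1 to 2, 18 to 19, 39 to 40 and 25 to 26 kb in that order, and 1 to 2 kb with 105 pairs on chromosome 9. The same class came first at more than 1 stage in 3 windows. It was 4 to 5 kb in the second window of chromosome 4 (74 pairs at E11.0 and 38 at E11.5), and 1 to 2 kb at E11.0 and E12.5 in the first window of chromosome 4 (26 and 7 pairs) and on chromosome 13 (155 and 23 pairs). In the first window of chromosome 4, the 80 to 81 kb class held 11 pairs at E11.5 and ranked first of 200, with 23 pairs at E11.0 (rank 7) and 4 at E12.5 (rank 11), against medians of 4, 11 and 2 pairs in the same order.

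The Hoxa11 replicates differed in how many peaks they had in the windows. By window, replicate 2 had 1 peak on chromosome 2, 2 and 1 in the windows of chromosome 4, 6 on chromosome 5, 10 on chromosome 8, 9 on chromosome 9 and 2 on chromosome 13, with 0 in the 3 windows of chromosome 14. Replicate 1 had 2, 0, 1, 2, 2, 0 and 6 in the same order of windows and also 0 on chromosome 14. Per Mb, replicate 2 had 2.35 peaks in the windows and 0.568 in the flanks, whereas replicate 1 had 0.985 in the windows and 1.21 in the flanks. Of the 32 replicate 1 peaks in the flanks, 17 lay left of the chromosome 5 window. Without that window and its flanks, replicate 1 had 0.982 peaks per Mb in the windows and 0.625 in the flanks, so its direction rested on that place, and replicate 2 had 2.23 and 0.3125. Without chromosome 9, replicate 2 had 1.69 in the windows and 0.577 in the flanks. The chromosome 14 windows, without Hoxa11 peaks, held 98, 103 and 208 Hoxa13 peaks at E11.0. Outside the windows 1.47% and 0.992% of E11.0 peaks met Hoxa11 replicates 1 and 2. With shares that low, the absence on chromosome 14 was not read as a result.

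Few Hoxa11 window peaks were shared between replicates. Of the 31 window peaks of replicate 2, 4 met a replicate 1 peak, or 12.9% (3.63 to 29.8), against 1060 of 1616 in the rest (65.6%), 12 of 15 in the flanks and 64.6% of the whole list. Of the 13 window peaks of replicate 1, 4 met replicate 2, or 30.8% (9.09 to 61.4), against 35.8% in the rest and 35.8% of the whole list, a difference well within the interval. Windows minus rest, the share differed by −52.7 points seen from replicate 2 and by −5.01 points seen from replicate 1.

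The list of replicate 2 gives the authors' own fold enrichment and −log10 q for each peak, which were not used in choosing the windows. The 31 window peaks had a median authors' fold of 2.07 (interquartile range 1.91 to 2.63, range 1.74 to 3.90), against 3.90 (3.29 to 4.68) for the 1616 others and 3.84 for the flanks. All 31 of 31 lay at or below the list median of 3.90, against 50.8% of the rest. Without chromosome 9 the window median was 2.18. The 23 peaks in the Hox cluster windows had a median authors' fold of 3.54. The median −log10 q was 4.90 in the windows, against 7.10 in the rest. The 9 peaks on chromosome 9 had −log10 q between 24.2 and 26.8 at folds of 1.87 to 1.97, whereas the 26 peaks outside the windows in that range of q had a median fold of 6.07.

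A low fold with a strong q means many reads over a high background, and both quantities could be recovered. Under the formulas of MACS2, the authors' fold and −log10 p of a peak fix a whole-number pile-up of reads at the summit and a background. One such pair fitted each of the 1647 peaks to within 0.000195 in −log10 p, while the next whole pile-up missed by at least 0.0220. The lowest background, 5.41 reads, was shared by 399 peaks and is called the floor. Window peaks had a median pile-up of 70 reads over a background of 33.6, which is 6.21 times the floor, against 33 reads over 7.04, or 1.30 times, in the rest. The flanks had 1.13 times, with a highest value of 6.36, and the Hox cluster windows 1.90 times, with a highest value of 2.77.

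A background of 5 times the floor or more was found for 21 of 31 window peaks (67.7%), against 60 of 1616 in the rest (3.71%). Among these 60 were 2 of the 15 flank peaks (13.3%). Of the 81 such peaks in the list, 21 thus lay in the windows, 17 on unplaced or mitochondrial sequence, 5 on X or Y and 38 elsewhere on autosomes. The share with a high background was higher in the windows, but most peaks that had it lay outside.

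By window, the background was highest on chromosome 9, with a median of 38.2 times the floor (34.6 to 38.8) under pile-ups of 371 to 399 reads. No peak of the list exceeded a pile-up of 400 or a background of 210.1 reads, where the fold would be 1.90, and 4 peaks outside the windows reached at least 371 reads. The chromosome 9 peaks were thus at or close to the highest values of the list in both quantities. Their folds of 1.87 to 1.97 lay close to the fold of 1.90 at these maxima, so they are not read as a measure of enrichment. Why the list stops at these values was not tested. The median background was 6.45 times the floor over 6 peaks on chromosome 5 and 5.34 times over 10 peaks on chromosome 8. It was 3.04 times on chromosome 13, 1.55 times on chromosome 2, and 1.07 and 1.46 times in the windows of chromosome 4, over 1 or 2 peaks each. The elevated background thus rested on the windows of chromosomes 5, 8 and 9, and without chromosome 9 the median was 5.24 times the floor.

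**Figure D3:**
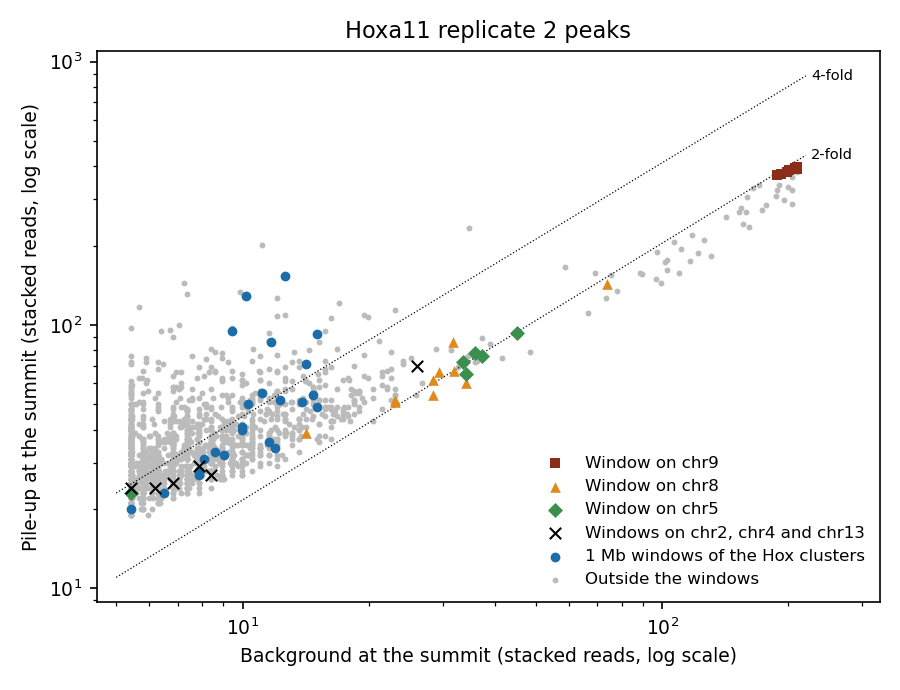
Pile-up (y axis) against background (x axis) at the summit of each Hoxa11 replicate 2 peak, both in stacked reads on log scales, recovered from the authors' fold and −log10 p; dotted lines mark authors' folds of 2 and 4. The 9 peaks on chromosome 9 lie at pile-ups of 371 to 399 over backgrounds of 187.5 to 210.1. In the windows 21 of 31 peaks lie at backgrounds of 5 times the floor of 5.41 reads or more. The counts are 2 of 15 in the flanks, drawn with the peaks outside, and 0 of 23 in the Hox cluster windows.

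Sharing between replicates was low at high background both in the windows and outside them. Among replicate 2 peaks with a background of 5 times the floor or more, 1 of 21 in the windows (4.76%, 0.120 to 23.8) and 7 of 60 in the rest (11.7%, 4.82 to 22.6) met replicate 1. Below that background the counts were 3 of 10 in the windows (30%, 6.67 to 65.2) and 1053 of 1556 in the rest (67.7%, 65.3 to 70.0). The high-background classes of windows and rest had overlapping intervals, and the interval of the low-background window class, with 10 peaks, overlapped both of them and ended just below that of the low-background rest. Without chromosome 9, 1 of 12 high-background window peaks met replicate 1 (8.33%, 0.211 to 38.5). The part of the background in the sharing was not tested.

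**Figure D4:**
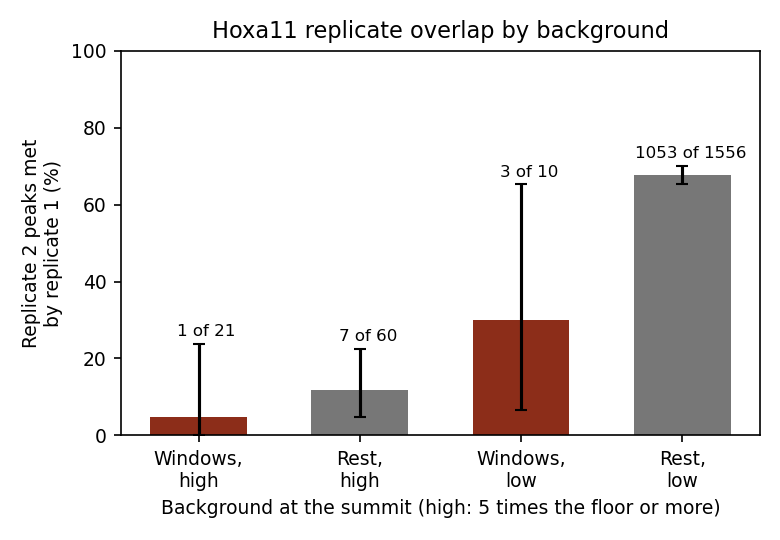
Share of Hoxa11 replicate 2 peaks met by a replicate 1 peak (y axis, percent) for peaks in the 10 windows and in the rest, split at a background of 5 times the floor; error bars are exact 95% intervals and the counts stand above them. Sharing is 4.76% and 11.7% at high background in windows and rest, and 30% and 67.7% at low background.

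Hoxa11 window peaks mostly met Hoxa13 peaks by at least 1 bp. Of the 31 in replicate 2, 28 met Hoxa13 at E11.0 (90.3%, against 29.4% in the rest and 30.5% of the whole list), 19 at E11.5 (61.3%, against 71.0% and 70.8%) and 28 at E12.5 (90.3%, against 55.1% and 55.7%). Of the 13 in replicate 1, 11 met Hoxa13 at E11.0 (84.6%, against 23.6% in the rest and 23.9% of the whole list), 13 at E11.5 (100%, against 70.9% and 71%) and 9 at E12.5 (69.2%, against 48.7% and 48.8%). The windows were picked for dense Hoxa13 peaks, which raises these shares by itself. For replicate 2 and Hoxa13 E11.5, windows minus rest was −9.69 points with chromosome 9, whose 9 peaks met none of E11.5, and 15.4 points without it. With overlap of 50% of both peaks, 10, 9 and 11 of the 31 in replicate 2 met Hoxa13 at E11.0, E11.5 and E12.5. In replicate 1 the counts were 5, 5 and 8 of 13. On that measure, windows minus rest was −8.89 points for replicate 1 and E11.5, −0.469 for replicate 2 and E12.5, and 23.3 and 15.2 for replicates 1 and 2 and E11.0.

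Outside the windows, peaks with a high background met the E11.5 list least. There, the 60 replicate 2 peaks with a background of 5 times the floor or more met Hoxa13 at E11.0 in 36 cases, at E11.5 in 7 and at E12.5 in 32, which is 60%, 11.7% and 53.3%. The 1556 others in the rest met Hoxa13 at these stages in 28.2%, 73.3% and 55.1%. In the windows the 21 high-background peaks met Hoxa13 in 20, 10 and 19 cases at the same stages, and the 10 others in 8, 9 and 9. The lower count at E11.5 in the windows came from chromosome 9 alone: without its 9 peaks, the 12 remaining high-background window peaks met Hoxa13 in 11, 10 and 10 cases, or 83.3% at E11.5. The E11.5 list and replicate 1, both met by few of the high-background peaks outside, share an input by title, and the part of that input was not tested.

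In the windows, 4 Hoxa11 sites were found in both replicates. The one with the highest authors' score lay on chromosome 8 from 19882267 to 19882649 in replicate 2, with an authors' fold of 2.66, −log10 q of 10.9 and a pile-up of 86 reads over a background of 31.7, or 5.86 times the floor. The site on chromosome 13 from 66532265 to 66532992 had a fold of 2.62, −log10 q of 8.34 and a background of 4.81 times the floor, below the 5-fold line by a small margin. Both were among the 3 sites of the windows met by all 5 lists.

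The other sites of both replicates had low backgrounds. The site on chromosome 5 from 15534847 to 15535085 had a fold of 3.74, −log10 q of 4.53 and a pile-up of 23 reads at the floor, and met Hoxa13 peaks of the later stages E11.5 and E12.5 without one of E11.0. The site on chromosome 2 from 177366367 to 177366606 had a fold of 2.98, −log10 q of 3.35 and 27 reads over a background of 1.55 times the floor, and was the remaining site met by all 5 lists. Merged over the lists, these 3 sites measured 1085 bp on chromosome 8 (19881627 to 19882711), 1771 bp on chromosome 13 (66531993 to 66533763) and 571 bp on chromosome 2 (177366191 to 177366761). The replicated window sites thus spanned background levels from the floor to 5.86 times it, with folds of 2.62 to 3.74 that lay below the list median of 3.90.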

How the data were processed

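Limb ChIP-seq peak lists of Hoxa13 (3 stages, 1 library each) and Hoxa11 (2 replicates) were analysed. MACS2 2.1.0, Bowtie2 2.2.2 and CASAVA 1.4 were used with build mm9, per the submitters' processing notes. Their roles, thresholds, treatment of duplicates and multi-mapped reads, and use of input in calling are not given in the sources used here. Each list belongs to 1 library. In 4 lists the authors deposited 3 columns, chromosome, start and end. The list of Hoxa11 replicate 2 has 10 columns, with the score, the fold enrichment, which is a ratio of pile-up to background, the −log10 p-value, the −log10 q-value and the summit position as deposited. These values describe and rank peaks within that list only.

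The windows, lists and settings were chosen with earlier results of these data known. Overlap means at least 1 bp, the rest is each peak outside the windows, and flanks have the length of the window on each side. Shares carry exact Clopper-Pearson 95% intervals, medians carry order-statistic intervals, and no test was run. The pile-up n and background b of replicate 2 were solved from fold = (n + 1)/(b + 1) and the Poisson tail p, and the solver was tested on simulated data. This, the split at 5 times the floor and the settings without the chromosome 13 window, without chromosome 9 for fold and background, and without chromosomes 5 or 9 for Hoxa11 density, were added after seeing the data. Alternatives were 50% reciprocal overlap, other definitions of the rest, fewer windows, the peaks above the median width of each list, a stricter q and other distance classes. Positions are 1-based.

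Named items are each window, its widest Hoxa13 peak, its most frequent distance class where a list has at least 30 peaks there, the up to 5 Hoxa11 sites of highest score found in both replicates, of which there were 4, and the sites met by all 5 lists. Planned sequence and motif counts were not run, as no genome of build mm9 was used here. Software was Python 3.11.15, numpy 2.4.6, pandas 2.3.3, scipy 1.17.1 and matplotlib 3.10.9.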

Additional observations from a re-analysis of the deposited data

How the results depend on the processing

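Differences below are windows minus rest, in percentage points for overlaps and bp for widths. Of 150 settings over 28 results, 107 kept the value within a limit, 37 moved it further and 6 turned its sign. The limit was the mean distance from the window value to the ends of its interval. The Hoxa11 peak count and the distance classes have no interval and were sorted by fold change instead. No paired analysis was possible because the Hoxa13 stages have 1 library each and the results come from no test across samples. The count of 44 Hoxa11 window peaks ranged from 13 to 31 when either replicate was left out. With distance classes of 2 kb, 16 combinations of list and window reached 2 times the median class, against 22 at 1 kb.

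The Hoxa13 shares at E11.0, E11.5 and E12.5 were 2.58%, 0.673% and 1.57% without the second window of chromosome 4, 2.23%, 0.641% and 1.88% without the chromosome 13 window, and 4.29%, 0.951% and 2.48% in the peaks above the median width of each list. On chromosomes 1 to 19 they were 3.40% at E11.0 and 2.24% at E12.5, and without chromosome 9 1.95% at E12.5.

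Overlap differences that turned sign were E11.0 with E12.5, 2.39 points, which became −1.79 without the second window of chromosome 4 and −5.53 at 50% reciprocal overlap, and Hoxa11 replicate 2 with Hoxa13 E11.5, −9.69, which became 15.4 without chromosome 9. At 50% reciprocal overlap, replicate 1 with E11.5 became −8.89 and replicate 2 with E12.5 −0.469. The replicate 2 width difference of −10.5 bp became 15 bp against the flanks.

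Others kept their sign. At 50% reciprocal overlap E11.0 with E11.5 was −8.59, E11.5 with E11.0 36.7, E11.5 with E12.5 11.2, E12.5 with E11.0 1.62, E12.5 with E11.5 −4.41, and Hoxa11 replicates 1 and 2 with Hoxa13 E11.0 23.3 and 15.2. Against the flanks E11.0 with E11.5 was −6.14, E11.5 with E11.0 32.8, E12.5 with E11.0 19.4, replicate 2 with replicate 1 −67.1, replicate 2 with Hoxa13 E11.0 43.7, and the width differences 35.5 bp at E11.0 and 11 bp at E11.5. Above the median width E11.0 with E12.5 was 0.0369, E11.5 with E11.0 48.9, E12.5 with E11.0 36.4 and replicate 2 with E11.5 −38.6, and −46.8 at −log10 q of at least 5. Without the second window of chromosome 4 E11.5 with E12.5 was 10.7. Without chromosome 9 E12.5 with E11.5 was −19.3. Without chromosome 13 E11.0 with E11.5 was −9.03, E11.0 with E12.5 9.75 and E11.5 with E12.5 19.05. The cause of these changes was not tested. Unknown read depth limits any comparison of counts between lists.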
